A study of Mus musculus with 30 samples.

Results

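The 10 h response of mouse CALM/AF10 leukemia cells to RG3039 was set against the response of normal granulocyte-macrophage progenitors (GMP), gene by gene. The members are the 30337 gene symbols listed in both TPM tables, out of 35923 listed in either table. They were compared over 12 of the 30 samples of the series. A gene was tested where at least 3 of the 18 samples of the time course had 1 TPM or more, which 14044 did. For each gene the change in log2(TPM + 1), 10 h minus 0 h, was taken in CALM/AF10 cells and in GMP, and the quantity of interest is the first change minus the second. TPM values are levels corrected for gene length and scaled to 1 sum in every sample. A negative difference means that the change was lower in CALM/AF10 cells than in GMP.

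The 4 groups held 3 samples each: CALM/AF10 cells 10 h after RG3039, CALM/AF10 cells at 0 h (before the compound), GMP 10 h after RG3039 and GMP at 0 h. The CALM/AF10 cells are acute myeloid leukemia cells labelled as the cell line CALM/AF10, after the fusion gene, and the GMP are normal bone marrow cells. Both come from C57BL/6 mice. The names of the deposited sheets give the RG3039 dose as 1 µM. The labels do not say whether the line is 1 clone, how the GMP were purified or cultured, or whether the samples of a group are separate cultures or animals. P-values therefore measure the spread between these samples, which may be technical. No untreated sample at 10 h was analysed here, so the compound cannot be told apart from the time in culture in any change given here.

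RG3039 inhibits Dcps, which clears the free cap that remains once the RNA exosome has degraded an mRNA. The 5′ cap is bound in the nucleus by the cap-binding complex, which assists splicing and export, and in the cytoplasm by eIF4E, which recruits ribosomes. GMP are bone marrow progenitors committed to neutrophils and monocytes, and CALM/AF10 leukemia is known for high expression of the HOXA cluster and its partner Meis1.

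All columns sum to 1000000 TPM, so sequencing depth is unknown. Pearson correlations of log2(TPM + 1) between samples of a group over the tested genes were 0.991 to 0.992 in CALM/AF10 cells at 10 h and 0.992 at 0 h, against 0.988 to 0.990 in GMP at 10 h and 0.980 to 0.985 at 0 h. Levels of the HOXA markers and Meis1 summed to 343 to 352 TPM in CALM/AF10 cells at 10 h and 382 to 395 TPM at 0 h, against 50.8 to 53.5 TPM in GMP at 10 h and 60.6 to 64.0 TPM at 0 h. The 10 progenitor markers summed to 7403 to 7669 TPM in CALM/AF10 cells at 10 h and 6738 to 7243 TPM at 0 h, against 11096 to 11710 TPM in GMP at 10 h and 21108 to 22033 TPM at 0 h. In GMP their sum was thus lower at 10 h than at 0 h, and in the CALM/AF10 cells it was slightly higher. Of 8 mature neutrophil markers all were above 1 TPM in each group, with sums of 63843 to 67103 TPM in CALM/AF10 cells at 10 h, mostly S100a8, and 61020 to 64056 TPM at 0 h, against 10242 to 10786 TPM in GMP at 10 h and 8747 to 11375 TPM at 0 h. The defining B cell markers summed to at most 1.20 TPM in CALM/AF10 cells at 10 h and 0.807 TPM at 0 h, against at most 15.1 TPM in GMP at 10 h and 24.5 TPM at 0 h. Red cell markers gave sums of at most 1.19 TPM in CALM/AF10 cells at 10 h and 0.808 TPM at 0 h, against at most 15.5 TPM in GMP at 10 h and 26.7 TPM at 0 h. T and NK cell markers stayed below 1.75 TPM in sum throughout. In such bulk samples fewer cells of a type and less RNA per cell cannot be told apart, and the part of other cells in the results below was not tested.

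The change at 10 h differed between the cell types for 5439 genes, which is 38.7% of those tested (limma with Benjamini-Hochberg adjustment, adjusted p below 0.05). The change was higher in CALM/AF10 cells for 2597 genes (18.5%) and lower for 2842 (20.2%). Taken within each cell type, 1050 genes rose (7.48%) and 868 fell (6.18%) in CALM/AF10 cells, while 3756 rose (26.7%) and 3611 fell (25.7%) in GMP. These calls rest on a common spread for both cell types, and samples of GMP correlated less closely. With the spread estimated per cell type, an alternative chosen after seeing the data, 1553 rose and 1259 fell in CALM/AF10 cells. In GMP 3398 rose and 3198 fell under that setting. The SD over genes of the change was 0.32 in CALM/AF10 cells and 0.64 in GMP on the log2 scale. Across genes, the changes in CALM/AF10 cells and in GMP had a Pearson correlation of 0.18 and a Spearman correlation of 0.15. Genes are not independent replicates, and these coefficients describe the samples.

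Among the 5439 called genes, 4123 had a call in GMP alone, 389 in CALM/AF10 cells alone and 248 in neither. In 340 the change had the same direction in both cell types and differed in size. In the other 339 genes, 2.41% of those tested, the cell types moved in opposite directions, with 157 rising in CALM/AF10 cells and falling in GMP and 182 the reverse. The 157 genes are 1.12% of those tested, and without sample c of CALM/AF10 cells at 10 h that share was 0.705%. Whether or not the difference was called, 938 genes (6.68%) changed in the same direction in both. Of the 7367 genes called in GMP, 3237 (43.9%) had a GMP level at 10 h that was nearer than the 0 h level to that of CALM/AF10 cells at 0 h, against 47.1% of all genes tested. The TPM tables were normalised separately, so that comparison of levels is a description.

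**Figure D1:**
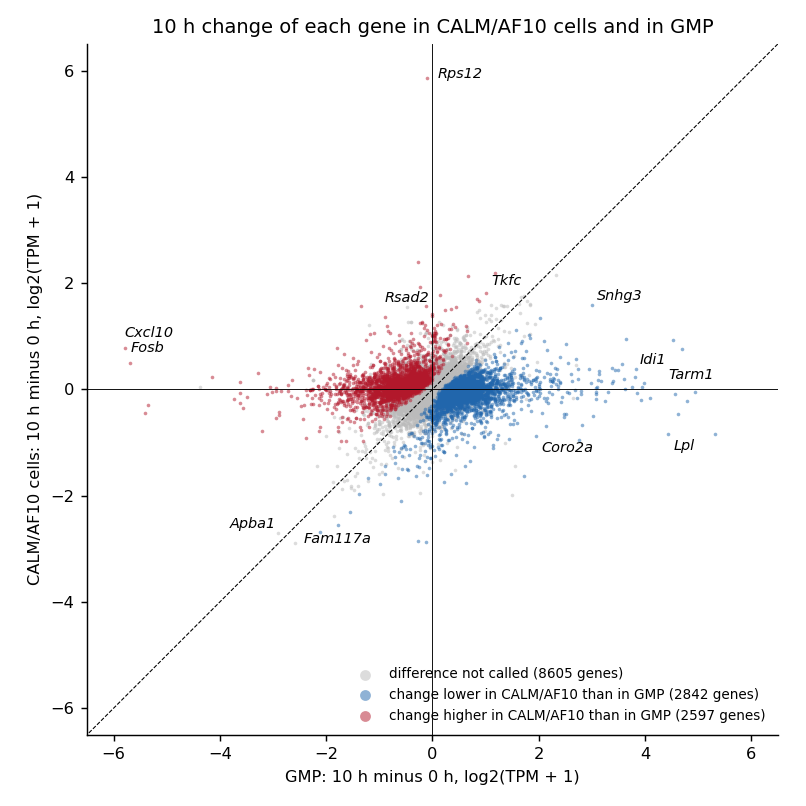
Change at 10 h of 14044 genes in CALM/AF10 cells (vertical axis) and in GMP (horizontal axis), both as 10 h minus 0 h in log2(TPM + 1). Each point is 1 gene, colour gives the call for the difference, the dashed line marks equal change, and most called genes lie along the horizontal axis, with a change in GMP and little in CALM/AF10 cells.

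The largest negative differences belonged to genes that were far higher in GMP at 10 h than at 0 h. Lpl, lipoprotein lipase, had 18.1, 15 and 15.9 TPM in CALM/AF10 cells at 10 h, against 29.2, 30.1 and 31 TPM at 0 h, and 44.6, 40.9 and 39 TPM in GMP at 10 h, against 0.866, 1.37 and 0.694 TPM at 0 h. It fell in CALM/AF10 cells (log2 change -0.85) and rose in GMP (4.44), giving a difference of -5.29 ± 0.14 (standard error) with a limma adjusted p of 3.52e-13. Spint1, which encodes a membrane inhibitor of serine proteases, had 14.1, 11.9 and 14 TPM in CALM/AF10 cells at 10 h, against 15.8, 15.7 and 15.3 TPM at 0 h, and 29.4, 25.8 and 29.3 TPM in GMP at 10 h, against 0.066, 0.0542 and 0.0385 TPM at 0 h. The samples at 10 h lay just below those at 0 h in CALM/AF10 cells and far above them in GMP. Its difference was -5.00. Tarm1, an activating receptor of myeloid cells, had 811, 818 and 924 TPM in CALM/AF10 cells at 10 h, against 840.1, 908 and 884 TPM at 0 h, and 110.0, 112 and 103 TPM in GMP at 10 h, against 2.25, 2.42 and 3.13 TPM at 0 h. The GMP samples at 10 h stood far above those at 0 h and the CALM/AF10 samples overlapped, for a difference of -4.98.

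Ifitm1, an interferon-inducible membrane protein, had a difference of -4.66, with 1685 ± 86.3 TPM in CALM/AF10 cells at 10 h and 1794 ± 50.8 TPM at 0 h, against 1248 ± 81.5 TPM in GMP at 10 h and 51.6 ± 5.04 TPM at 0 h (SD, n = 3 each). Vcan, the proteoglycan versican, had a difference of -4.26, and Ccl24, an eosinophil chemokine, one of -4.13. Cish, a feedback inhibitor of cytokine signalling through STAT5, had 114, 104 and 91.8 TPM in CALM/AF10 cells at 10 h, against 113, 103 and 109 TPM at 0 h, and 105, 117 and 109 TPM in GMP at 10 h, against 7.4, 6.08 and 6.75 TPM at 0 h. At 10 h the cell types overlapped, and its difference was -3.92. Sprr2a2, one of a family of near-identical genes and therefore uncertain, had a difference of -3.89 and was below 0.1 TPM in every CALM/AF10 sample.

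At the positive end stood genes that were low in GMP at 10 h and high at 0 h. Cxcl10, a chemokine induced by interferon, had 50.9, 14.4 and 21.6 TPM in CALM/AF10 cells at 10 h, against 11.6, 14.6 and 17.1 TPM at 0 h, and 1.17, 2.9 and 2.46 TPM in GMP at 10 h, against 163, 176 and 169 TPM at 0 h. GMP fell by 5.79 on the log2 scale, the CALM/AF10 samples overlapped, and the difference was 6.57. Fosb, an AP-1 subunit, had 0.388, 0.778 and 0.7 TPM in CALM/AF10 cells at 10 h, against 0.155, 0.0593 and 0.203 TPM at 0 h, and 0.215, 0.151 and 0.406 TPM in GMP at 10 h, against 67.3, 58.3 and 64.8 TPM at 0 h. It was below 1 TPM in every CALM/AF10 sample, with those at 10 h above those at 0 h. Its difference was 6.19. Dusp1, a phosphatase that switches off MAP kinases, had a difference of 5.07, and the neutrophil chemokine Cxcl2 one of 4.95. The differences of the NF-kB feedback genes Tnfaip3 and Nfkbiz were 4.37 and 3.76, and that of the cAMP phosphodiesterase Pde4b was 3.59. Each of these 7 genes was below its 0 h range in all 3 GMP samples at 10 h. Rps12, a ribosomal protein gene with many near-identical copies, is uncertain. It had 0.0717, 602 and 375 TPM in CALM/AF10 cells at 10 h and at most 0.199 TPM at 0 h, against 173 to 291 TPM over the GMP samples. Its difference of 5.95 (limma adjusted p = 0.0391) came from samples b and c of CALM/AF10 cells at 10 h, and it was no longer called without either of them (4.32 and 4.66, adjusted p of 0.105 and 0.107).

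Dcps itself, the target of the compound, had 18.2, 18.3 and 19.9 TPM in CALM/AF10 cells at 10 h, against 14.7, 16.7 and 14.9 TPM at 0 h, and 51, 51.7 and 52 TPM in GMP at 10 h, against 44.7, 47.8 and 42.4 TPM at 0 h. All samples at 10 h lay above those at 0 h in both cell types, but neither change passed the test across genes. The difference was 0.08 with a 95% interval of -0.27 to 0.42. Hoxa9, a driver of this leukemia, fell by 0.18 in CALM/AF10 cells and by 0.14 in GMP. Their difference was -0.04, with an interval of -0.20 to 0.13 and a limma adjusted p of 0.744. Meis1 had a difference of 0.18 (interval -0.04 to 0.40, limma adjusted p = 0.199).

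Myc, a master regulator of cell growth, had 456, 494 and 503 TPM in CALM/AF10 cells at 10 h, against 509, 499 and 503 TPM at 0 h, and 697, 720.0 and 677 TPM in GMP at 10 h, against 326, 342 and 350.1 TPM at 0 h. Only the GMP groups stood apart, with a rise of 1.04 in GMP, a CALM/AF10 value of -0.06 and a difference of -1.10. Cdkn1a, the cell cycle inhibitor p21, had 59.4, 52.3 and 49.5 TPM in CALM/AF10 cells at 10 h, against 42.3, 49.1 and 49.8 TPM at 0 h, and 55.4, 54.3 and 51.9 TPM in GMP at 10 h, against 15.7, 15.3 and 15.7 TPM at 0 h. It rose in GMP alone, where it overlapped the CALM/AF10 cells at 10 h, with a difference of -1.54. Mcl1, an anti-apoptotic protein of the BCL2 family, fell by 0.59 in GMP and had -0.04 in CALM/AF10 cells, for a difference of 0.55 (limma adjusted p = 0.00105). Of 15 tested genes of the BCL2 family, 4 had a higher difference and 6 a lower one, against 18.5% and 20.2% of all genes tested. Their median was -0.05, against 0.03 over all genes tested.

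Lipid synthesis gave the list furthest from the median of all genes. All 25 genes of cholesterol synthesis had a lower change in CALM/AF10 cells than in GMP, with a median difference of -2.27. All 25 rose in GMP, with a median of 2.40, and 7 rose and none fell in CALM/AF10 cells, with a median of 0.20. Idi1, which isomerises the isoprenoid building block, had 33.6, 36.5 and 41.5 TPM in CALM/AF10 cells at 10 h, against 34.3, 32.6 and 27.4 TPM at 0 h, and 123, 112 and 125 TPM in GMP at 10 h, against 7.73, 8.7 and 6.61 TPM at 0 h. The CALM/AF10 samples of both times overlapped, and the GMP samples at 10 h lay above those at 0 h. Its difference was -3.57 ± 0.17 (limma adjusted p = 2.04e-10). Lss, which closes the sterol rings, Mvd of the mevalonate pathway and the sterol oxidase Msmo1 had differences of -3.25, -3.14 and -3.01. Mvd was one of the 7 that also rose in CALM/AF10 cells, by 0.36.

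Fatty acid synthesis showed the same arrangement, with 14 of 15 tested genes lower in CALM/AF10 cells, 1 higher and a median of -1.32. The desaturase Fads2 had 58.9, 55.8 and 55.5 TPM in CALM/AF10 cells at 10 h, against 56.6, 56.4 and 52.8 TPM at 0 h, and 124, 147 and 116 TPM in GMP at 10 h, against 9.67, 8.23 and 7.8 TPM at 0 h. The CALM/AF10 samples overlapped while GMP rose, for a difference of -3.73. Elovl6, which lengthens fatty acids, rose by 0.58 in CALM/AF10 cells and by 2.70 in GMP, and Fasn, fatty acid synthase, by 0.30 in CALM/AF10 cells and by 2.21 in GMP. Of 13 tested genes of cholesterol export and lipid uptake, 5 were higher and 3 lower, against 18.5% and 20.2% of all genes tested. The cholesterol exporter Abcg1 had a difference of 1.91, and Mylip, which marks the LDL receptor for degradation, one of 1.49. Both fell in GMP and overlapped in CALM/AF10 cells, opposite to the synthesis genes. Lpl and Fabp5 of the same list had larger differences the other way, -5.29 and -2.03, and rose in GMP by 4.44 and 2.21. In GMP 5 genes of this list rose and 5 fell, against 26.7% and 25.7% of all genes tested.

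**Figure D2:**
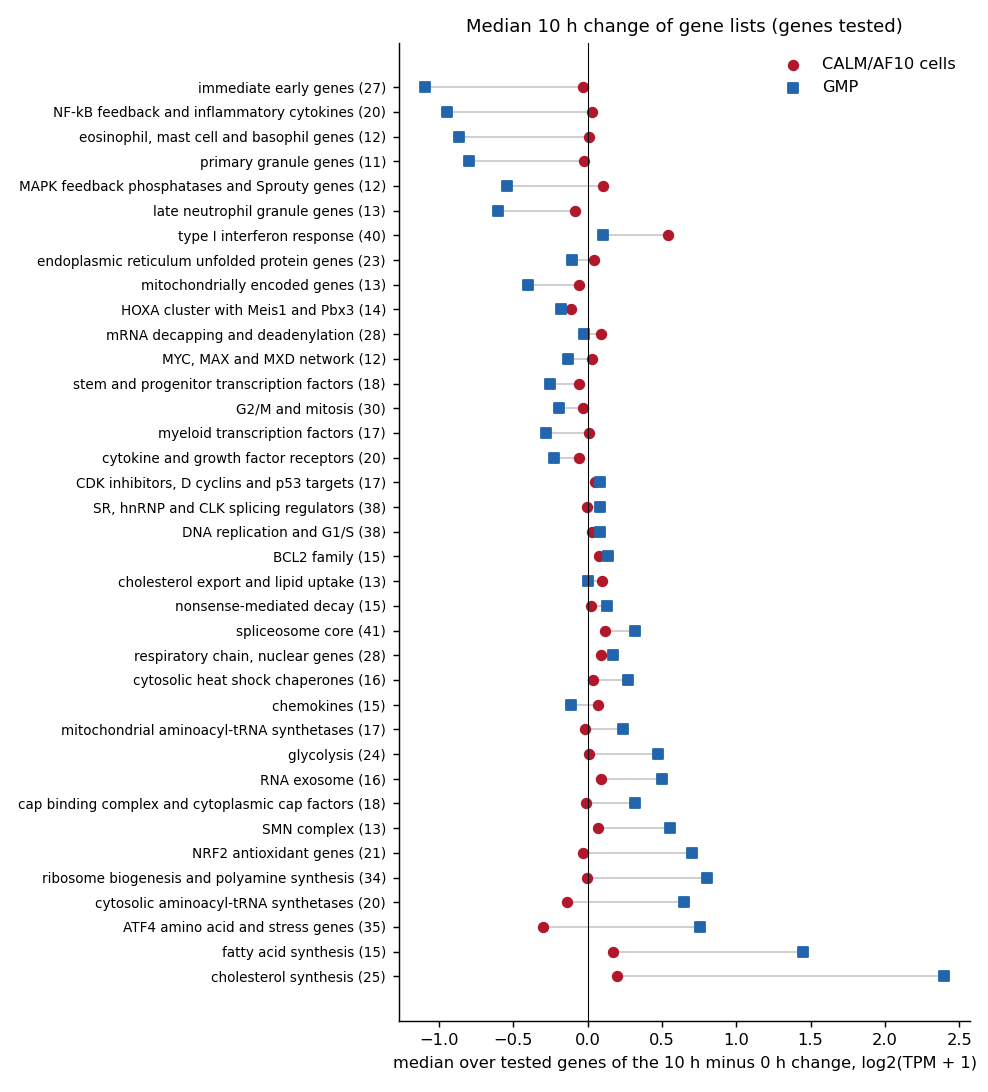
Median 10 h change of 37 gene lists in CALM/AF10 cells (red circles) and GMP (blue squares), in log2(TPM + 1), ordered by the median difference, with the number of tested genes in brackets. The CALM/AF10 medians lie between -0.30 and 0.54, and the GMP medians between -1.09 and 2.40.

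Genes of growth and protein synthesis rose in GMP, where Myc rose as well. Of 34 tested genes of ribosome biogenesis and polyamine synthesis, 33 had a lower change in CALM/AF10 cells and none a higher one, with a median of -0.79. In CALM/AF10 cells 1 rose and 1 fell, and in GMP 33 rose, against 26.7% of all genes rising there. The ribosomal RNA processing factor Rrp9 had 19.5 ± 0.78 TPM in CALM/AF10 cells at 10 h and 21.6 ± 0.695 TPM at 0 h, against 66.3 ± 0.804 TPM in GMP at 10 h and 20.4 ± 2.16 TPM at 0 h (SD, n = 3 each), for a difference of -1.81. Nop2, an rRNA methyltransferase, fell by 0.18 in CALM/AF10 cells and rose by 1.18 in GMP. Srm, spermidine synthase, had a difference of -1.27. In the list of MYC partners, 5 of 12 differences were higher and 3 lower, where 18.5% and 20.2% of all genes tested were. The repressor Mxd4 had the largest, 2.25, falling in GMP by 2.27. Glycolysis genes were lower in 13 of 24 and higher in 3, with a median of -0.40, and the 3 were 1 without sample a or c of CALM/AF10 cells at 10 h or sample a of GMP at 0 h. Ldha, lactate dehydrogenase, rose by 1.11 in GMP and had -0.06 in CALM/AF10 cells.

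The amino acid and stress genes controlled by the transcription factor ATF4 held 18 genes with opposite directions, the most of the 37 lists. Of 35 tested, 29 had a lower change in CALM/AF10 cells and 4 a higher one, with a median of -1.27. In CALM/AF10 cells 21 fell and 1 rose, against 6.18% of all genes falling. In GMP 27 rose and 5 fell. For those 18 the fall in CALM/AF10 cells, the rise in GMP and the difference were all called, against 2.41% of all genes opposed in either orientation. Asns, asparagine synthetase, had 23.9, 24.2 and 29.4 TPM in CALM/AF10 cells at 10 h, against 42.1, 40.5 and 38.5 TPM at 0 h, and 25.8, 24.2 and 23.9 TPM in GMP at 10 h, against 6.82, 8.84 and 6.96 TPM at 0 h. Both pairs of groups stood apart in opposite directions, with changes of -0.63 in CALM/AF10 cells and 1.59 in GMP and a difference of -2.22 ± 0.13 (limma adjusted p = 1.72e-09). At 10 h the Asns levels of the cell types overlapped. The mitochondrial folate enzyme Mthfd2 had a difference of -2.10 and the stress protein Nupr1 one of -2.09, both with a rise in GMP and no call in CALM/AF10 cells. Ppp1r15a, which restarts translation after stress, ran the other way with 2.25, with a fall of 2.35 in GMP.

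Promoters are shown for a pair of genes each from this list and the interferon list, where the differences ran in both directions and that of Rsad2 was 1.39 and that of Oas1g -1.20. They were picked among the named genes that hold the motif known for the list. The C/EBP-ATF element, bound by ATF4, was searched as TGATGNAA on both strands in the 300 bases from 250 before to 50 after each RefSeq start site (GRCm38.p6). It was present in 10 of the 31 genes of the ATF4 list with a promoter sequence (32.3%), against 4.51% of all 27025 genes with one. The interferon element, bound by STAT and IRF factors, was searched as GAAANNGAA and was found in 20 of 31 genes of the interferon list (64.5%), against 9.76% of all genes. Capitals mark the matches, which are descriptions of sequence and not binding sites. The Asns promoter lies at chr6:7693160-7693459 (minus strand), with its match starting 23 bases before the start site, and that of Nupr1 at chr7:126625421-126625720 (minus strand). The promoter of Rsad2, an antiviral enzyme, lies at chr12:26456403-26456702 (minus strand), and that of Oas1g, a sensor of viral RNA, at chr5:120887564-120887863 (minus strand), where a pair of matches overlaps.
Asns: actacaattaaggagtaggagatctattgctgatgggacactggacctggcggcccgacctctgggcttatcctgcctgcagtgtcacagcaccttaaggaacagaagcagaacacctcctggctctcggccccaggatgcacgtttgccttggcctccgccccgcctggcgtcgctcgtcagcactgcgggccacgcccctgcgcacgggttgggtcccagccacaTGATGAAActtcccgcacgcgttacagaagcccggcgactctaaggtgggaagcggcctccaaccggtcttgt
Nupr1: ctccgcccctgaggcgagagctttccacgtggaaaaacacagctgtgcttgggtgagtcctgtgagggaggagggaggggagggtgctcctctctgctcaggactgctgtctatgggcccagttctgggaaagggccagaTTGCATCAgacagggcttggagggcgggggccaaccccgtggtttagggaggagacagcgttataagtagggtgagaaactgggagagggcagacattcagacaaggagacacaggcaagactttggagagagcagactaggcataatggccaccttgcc
Rsad2: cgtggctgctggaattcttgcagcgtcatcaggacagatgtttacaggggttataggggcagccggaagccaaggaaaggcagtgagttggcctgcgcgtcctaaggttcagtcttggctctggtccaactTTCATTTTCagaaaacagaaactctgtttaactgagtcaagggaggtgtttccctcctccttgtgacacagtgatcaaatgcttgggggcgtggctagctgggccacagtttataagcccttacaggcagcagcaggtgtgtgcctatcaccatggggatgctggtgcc
Oas1g: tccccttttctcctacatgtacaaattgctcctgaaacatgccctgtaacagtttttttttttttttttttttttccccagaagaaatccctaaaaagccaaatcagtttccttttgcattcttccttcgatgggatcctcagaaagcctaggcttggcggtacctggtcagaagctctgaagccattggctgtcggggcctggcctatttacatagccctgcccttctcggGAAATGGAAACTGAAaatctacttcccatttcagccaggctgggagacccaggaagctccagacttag
For cholesterol synthesis, the sterol response core TCACNCCAC was found in 1 of 17 promoters, against 1.44% of all genes. The E-box CACGTG, which MYC binds, was found in 8 of 29 ribosome biogenesis genes (27.6%), against 8.09% of all genes. These motifs were also searched on both strands of the same windows.

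The enzymes that charge tRNAs in the cytosol, many of them ATF4 targets, had 17 of 20 lower differences and none higher, with a median of -0.84. In CALM/AF10 cells 7 fell and 2 rose, in GMP 19 rose, and for 7 the opposite directions and the difference were all called (4 without sample a of CALM/AF10 cells at 10 h). Gars, glycyl-tRNA synthetase, had changes of -0.32 and 1.11 in CALM/AF10 cells and GMP, and a difference of -1.43. The 17 mitochondrial synthetases had 5 lower differences and none higher, against 20.2% and 18.5% of all genes tested. The antioxidant genes controlled by NRF2 had 16 of 21 lower and 3 higher, with a median of -0.63, and 5 were opposed. Hmox1, which degrades heme, had 66, 63.9 and 58.3 TPM in CALM/AF10 cells at 10 h, against 94.8, 99 and 104 TPM at 0 h, and 8.49, 11.1 and 8.41 TPM in GMP at 10 h, against 2.11, 2.09 and 3.74 TPM at 0 h. The times did not overlap in either cell type. It fell by 0.66 in CALM/AF10 cells and rose by 1.52 in GMP. The quinone reductase Nqo1, Srxn1, which repairs peroxiredoxins, and Gclm, of glutathione synthesis, had differences of -1.88, -1.88 and -1.59, each with a fall in CALM/AF10 cells and a rise in GMP.

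Immediate early genes, which rise within minutes of a stimulus and decay fast, lay at the other end. Of 27 tested, 22 had a higher change in CALM/AF10 cells and 2 a lower one, with a median of 1.30. In GMP 23 fell and 3 rose, and in CALM/AF10 cells 1 rose and 2 fell. Jun, the AP-1 partner of Fosb, had 12.1, 11.1 and 11.9 TPM in CALM/AF10 cells at 10 h, against 14.9, 15.4 and 15 TPM at 0 h, and 8.41, 8.59 and 7.5 TPM in GMP at 10 h, against 114, 100.1 and 110.2 TPM at 0 h. It fell in both, by 0.34 in CALM/AF10 cells and by 3.57 in GMP, and its difference was 3.23 ± 0.11 (limma adjusted p = 4.59e-12). The nuclear receptor Nr4a1 and the factor Klf2 had differences of 2.97 and 2.39.

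The MAP kinase feedback genes were higher in 8 of 12 and lower in 1, with a median of 0.64, and Dusp6, which dephosphorylates ERK, had a difference of 1.96. NF-kB feedback genes and inflammatory cytokines were higher in 15 of 20 and lower in 1, with a median of 0.99. The cytokine Tnf had 37.7, 25.2 and 30.7 TPM in CALM/AF10 cells at 10 h, against 33.2, 31.2 and 38.2 TPM at 0 h, and 22.3, 18.6 and 17.3 TPM in GMP at 10 h, against 221, 242 and 213 TPM at 0 h. The CALM/AF10 samples overlapped and all GMP samples at 10 h lay below those at 0 h, for a difference of 3.34. Nfkbia, the inhibitor of NF-kB, had a difference of 2.96. Genes of the unfolded protein response of the endoplasmic reticulum were higher in 11 of 23 and lower in 2, with a median of 0.23. For all genes tested the shares were 18.5% and 20.2%. Herpud1, which helps to degrade misfolded proteins, had a difference of 1.21.

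**Figure D3:**
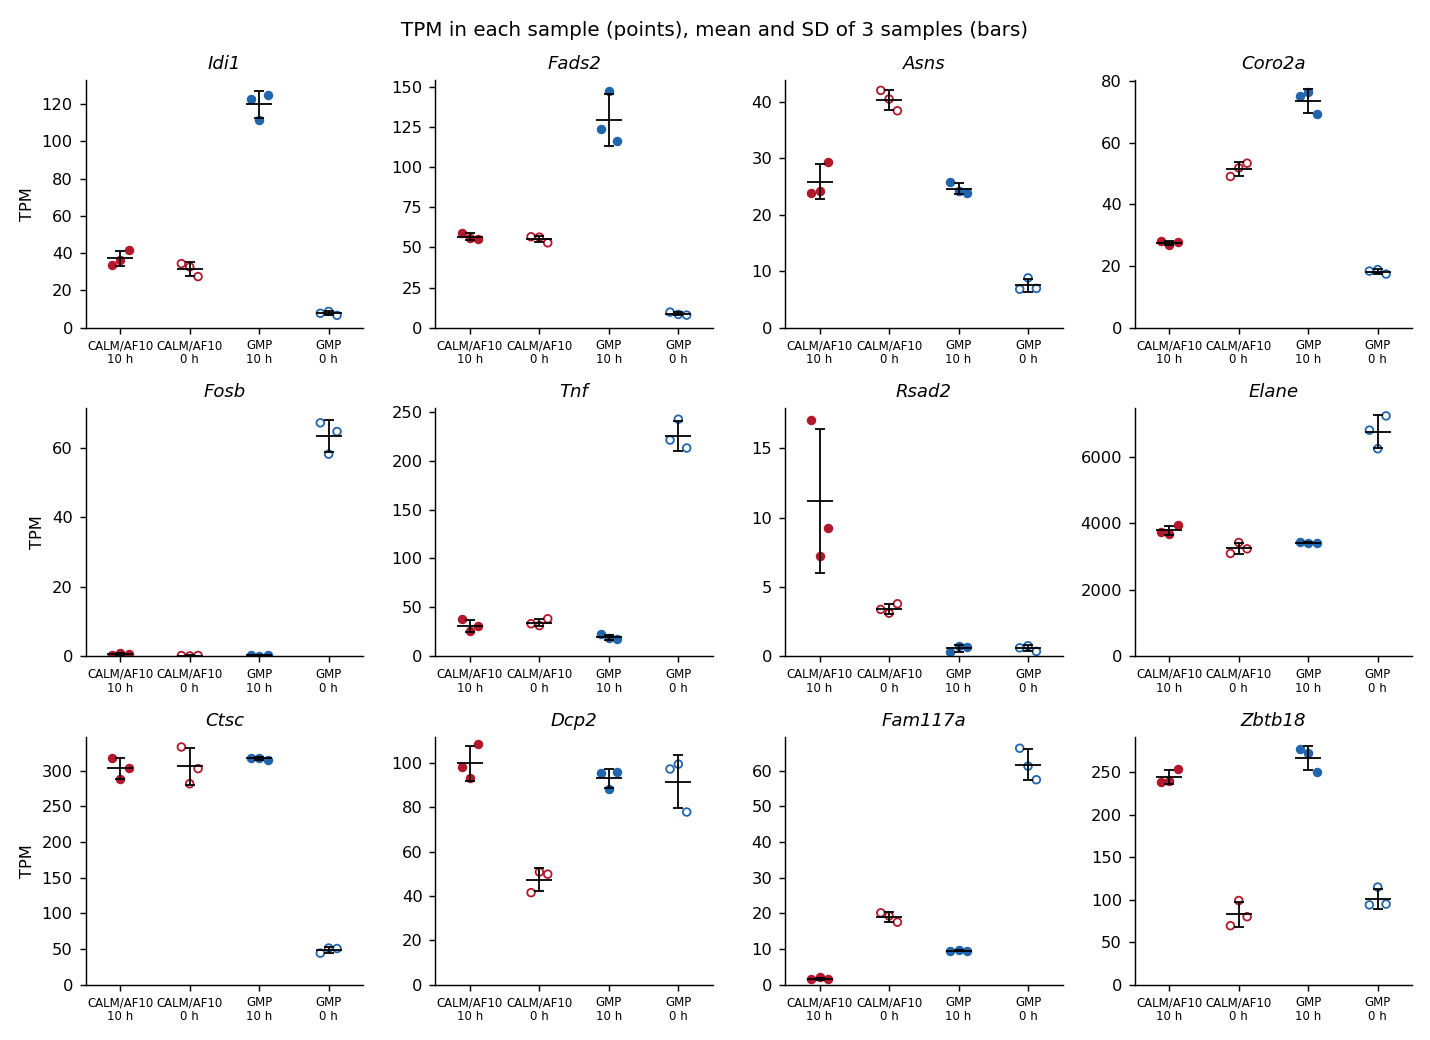
TPM of 12 named genes in every sample, with CALM/AF10 cells in red and GMP in blue, 10 h as filled and 0 h as open points. Bars give the mean and SD of 3 samples; Coro2a and Asns fell in CALM/AF10 cells and rose in GMP, Fam117a fell and Zbtb18 rose in both, and Dcp2 rose in CALM/AF10 cells alone.

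More of the interferon response genes rose in CALM/AF10 cells than in GMP. Of 40 tested, 26 rose and none fell there, against 7.48% of all genes rising. In GMP 13 rose and 4 fell, against 26.7% and 25.7% of all genes. The 26 were 18 without sample a of CALM/AF10 cells at 10 h, and 18 without sample b at 0 h, and the 4 that fell in GMP were 1 without sample b of GMP at 0 h. Over all genes tested, 18.5% had a higher difference and 20.2% a lower one. In this list the difference was higher for 16 and lower for 5, with a median of 0.39. Without that sample a these counts were 9 and 9, and it had the highest level of the 12 samples for each gene named below. Cmpk2, a nucleotide kinase encoded beside Rsad2, had 18.2, 10.8 and 13.3 TPM in CALM/AF10 cells at 10 h, against 4.9, 5.12 and 5.67 TPM at 0 h, and 2.08, 2.05 and 1.89 TPM in GMP at 10 h, against 2.42, 2.12 and 2.77 TPM at 0 h. The samples at 10 h lay above those at 0 h in CALM/AF10 cells and slightly below them in GMP. Its difference was 1.44 ± 0.22 (limma adjusted p = 7.65e-05). Rsad2, whose promoter is shown above, had 17, 7.25 and 9.25 TPM in CALM/AF10 cells at 10 h, against 3.37, 3.1 and 3.78 TPM at 0 h, and 0.274, 0.738 and 0.669 TPM in GMP at 10 h, against 0.598, 0.749 and 0.34 TPM at 0 h. All 3 CALM/AF10 samples at 10 h stood above those at 0 h, the GMP samples overlapped, and the difference was 1.39. Xaf1, a pro-apoptotic interferon target, had a difference of 1.30 (limma adjusted p = 0.0201), which was 1.04 with an adjusted p of 0.0554 without that sample and 1.16 with 0.0512 without sample c of GMP at 10 h. Oas1g rose in both, by 0.91 in CALM/AF10 cells and by 2.11 in GMP, and its difference was -1.20. It is one of several near-identical Oas1 copies and is therefore uncertain. Irf7, the factor that amplifies the response, rose by 1.08 in CALM/AF10 cells and by 1.43 in GMP. Its difference was -0.35 (interval -1.05 to 0.34, limma adjusted p = 0.418), and -0.71 with an adjusted p of 0.0182 without that sample.

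Genes of the neutrophil and eosinophil granules mostly fell in GMP. The summed progenitor markers, which include Elane, fell in GMP as well, and their part was not tested. Of 11 tested primary granule genes, 7 had a higher change in CALM/AF10 cells and 3 a lower one, with a median of 0.78. These shares were 18.5% and 20.2% over all genes tested. In GMP 8 fell, against 25.7% of all genes. Elane, neutrophil elastase, had 3747, 3681 and 3938 TPM in CALM/AF10 cells at 10 h, against 3092, 3421 and 3231 TPM at 0 h, and 3436, 3411 and 3416 TPM in GMP at 10 h, against 6805, 6244 and 7234 TPM at 0 h. It rose by 0.22 in CALM/AF10 cells and fell by 0.98 in GMP, for a difference of 1.20. The lysozyme gene Lyz2 and the granule protein gene Nkg7 had differences of 1.13 and 1.17. Ctsc, which activates the granule proteases, was among the 3 with a lower difference and had 319, 288 and 304 TPM in CALM/AF10 cells at 10 h, against 333, 282 and 303 TPM at 0 h, and 318, 319 and 315 TPM in GMP at 10 h, against 44.1, 51.3 and 50.6 TPM at 0 h. It rose in GMP by 2.68 to within the range of the CALM/AF10 cells, and its difference was -2.69. Late neutrophil granule genes were higher in 8 of 13 and lower in 2 (median 0.64), with 2.42 for the secreted protein gene Retnlg and 1.48 for the antimicrobial peptide gene Camp. Eosinophil, mast cell and basophil genes were higher in 7 of 12 and lower in 4, with a median of 0.91. Their markers, which define cells other than GMP, summed to 13.8 to 15.6 TPM in CALM/AF10 cells at 10 h and 14.3 to 16.5 TPM at 0 h, against 179 to 202 TPM in GMP at 10 h and 287 to 357 TPM at 0 h.

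Regulators of myeloid fate moved both ways. Myeloid transcription factors had 7 higher and 4 lower differences among 17. Irf8, which directs progenitors toward monocytes, fell by 2.00 in GMP and had a difference of 2.09. Id1, an inhibitor of helix-loop-helix factors, had 101, 108 and 102 TPM in CALM/AF10 cells at 10 h, against 104, 95.7 and 104 TPM at 0 h, and 80.1, 72.1 and 71.4 TPM in GMP at 10 h, against 9.28, 5.75 and 9.01 TPM at 0 h. The CALM/AF10 samples of both times overlapped, the GMP samples at 10 h lay above those at 0 h, and the difference was -3.06. Cytokine receptors had 7 higher and 5 lower among 20. The shared beta chain of the GM-CSF, IL-3 and IL-5 receptors, Csf2rb, had 287, 278 and 284 TPM in CALM/AF10 cells at 10 h, against 241, 263 and 262 TPM at 0 h, and 211, 212 and 199 TPM in GMP at 10 h, against 50.7, 50.2 and 49.9 TPM at 0 h. In both cell types all samples at 10 h lay above those at 0 h. Its difference was -1.87, and that of its close copy Csf2rb2 was -2.87, where reads could be split between the copies. In the HOXA list, 7 of 14 were higher and 1 lower, with a median of 0.21. There 8 fell and 2 rose in GMP (median -0.18), where 25.7% of all genes fell and 26.7% rose. In CALM/AF10 cells 2 fell and 3 rose (median -0.11), where 6.18% of all genes fell and 7.48% rose. The 3 that rose were 1 with a pseudocount of 0.1 TPM. The 2 that fell were 0 without sample c of CALM/AF10 cells at 0 h. Hoxa10 and Hoxa5 were below 1 TPM in GMP at 10 h. Over all genes tested, 18.5% of differences were higher and 20.2% lower.

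Of 18 tested genes of cap-binding factors, 9 had a lower change in CALM/AF10 cells and none a higher one, with a median of -0.48. None rose and 4 fell in CALM/AF10 cells, where 7.48% of all genes rose and 6.18% fell, and 11 rose and 1 fell in GMP, where 26.7% of all genes rose and 25.7% fell. Eif4e, the cytoplasmic cap-binding protein, rose by 0.88 in GMP and had -0.03 in CALM/AF10 cells. Srrt, a partner of the nuclear cap-binding complex, had 46.9, 45.3 and 49.7 TPM in CALM/AF10 cells at 10 h, against 73.7, 78.2 and 81.1 TPM at 0 h, and 138, 131 and 124 TPM in GMP at 10 h, against 127, 130.1 and 118 TPM at 0 h. It fell by 0.70 in CALM/AF10 cells and had 0.07 in GMP, for a difference of -0.77 ± 0.10 (limma adjusted p = 2.54e-05). Decapping and deadenylation genes had a median difference of 0.17. Of 28, 9 were higher and 3 lower, against 18.5% and 20.2% of all genes tested. In CALM/AF10 cells 3 rose and 1 fell, and in GMP 7 rose and 10 fell. The 3 lower differences were 5 without sample c of CALM/AF10 cells at 10 h, 6 without sample b of GMP at 0 h or with values centred on the median gene, and 1 with quantile normalization. Dcp2, the catalytic subunit of mRNA decapping, had 98.2, 93 and 108 TPM in CALM/AF10 cells at 10 h, against 41.4, 50.8 and 49.8 TPM at 0 h, and 95.3, 88.1 and 95.6 TPM in GMP at 10 h, against 97.2, 99.4 and 77.8 TPM at 0 h. It rose by 1.06 in CALM/AF10 cells alone, where it overlapped GMP at 10 h, and the difference was 1.03. Pnrc1, a decapping cofactor, fell by 2.71 in GMP alone.

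RNA exosome genes, whose products degrade mRNA from the 3′ end and so feed Dcps, were lower in 11 of 16 and higher in 1, with a median of -0.44. The exosome nuclease gene Dis3 had a difference of -1.09. The spliceosome core was lower in 16 of 41 and higher in 3 (median -0.16), the SMN complex, which assembles spliceosomal particles, lower in 7 of 13 and higher in none (median -0.51), and splicing regulators lower in 11 of 38 and higher in 5 (median -0.03). The splicing kinase Clk1 had a difference of 1.38, with a fall of 1.52 in GMP. Of the spliceosome core 10 rose and none fell in CALM/AF10 cells, and 29 rose and 1 fell in GMP. Of the SMN complex none rose and none fell in CALM/AF10 cells, and 8 rose and 1 fell in GMP. Of the splicing regulators 3 rose and 3 fell in CALM/AF10 cells, and 14 rose and 11 fell in GMP, or 10 and 16 with quantile normalization. Nonsense-mediated decay genes were lower in 5 of 15 and higher in 1. Over all genes tested, 20.2% of differences were lower and 18.5% higher, 38.7% in either direction. The called shares of splicing regulators and decay genes were close to that 38.7%. In CALM/AF10 cells 7.48% of all genes rose and 6.18% fell, and in GMP 26.7% rose and 25.7% fell. With quantile normalization the lower count was 8 for the spliceosome core and 5 for splicing regulators, whose higher count was then 11. The rise of 10 spliceosome genes in CALM/AF10 cells was called for 4 without sample b at 0 h, and the 3 higher differences were 1 without that sample or without sample b of GMP at 10 h or 0 h.

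DNA replication genes had 4 higher and 7 lower differences among 38, and mitotic genes 8 higher and 2 lower among 30, against 38.7% of all genes called in either direction. E2f3, an activator of S phase genes, had 4.58, 4.61 and 8.11 TPM in CALM/AF10 cells at 10 h, against 23.9, 20.9 and 13.6 TPM at 0 h, and 10.7, 9.6 and 10.3 TPM in GMP at 10 h, against 7.55, 8.08 and 7.66 TPM at 0 h, with a fall of 1.60 in CALM/AF10 cells and a difference of -1.96.

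Coro2a, a coronin of the actin cytoskeleton, stood out among the genes that fell in CALM/AF10 cells and rose in GMP. It had 28.2, 26.8 and 27.7 TPM in CALM/AF10 cells at 10 h, against 49, 51.8 and 53.3 TPM at 0 h, and 75.1, 76.4 and 69.2 TPM in GMP at 10 h, against 18.3, 18.8 and 17.4 TPM at 0 h. The changes were -0.87 in CALM/AF10 cells and 1.96 in GMP, and the difference was -2.83 ± 0.08 (limma adjusted p = 6.82e-13). The stress factor gene Atf5 had 32, 34 and 33.2 TPM in CALM/AF10 cells at 10 h, against 62.7, 60.7 and 64.2 TPM at 0 h, and 23.1, 23.8 and 21.5 TPM in GMP at 10 h, against 9.58, 10.0 and 14.6 TPM at 0 h. No sample at 10 h overlapped those at 0 h in either cell type, and the difference was -1.86. Tmem154, a membrane protein, and Reep6, of the endoplasmic reticulum, had differences of -2.38 and -2.10. The chemokine Ccl17 and the hormone precursor Gnrh1 were below 4 TPM in every CALM/AF10 sample, with differences of -3.72 and -2.25.

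In the reverse orientation, Phf21a, a component of a histone demethylase complex, had 68.5, 75.3 and 77 TPM in CALM/AF10 cells at 10 h, against 35.6, 43.3 and 45.1 TPM at 0 h, and 47, 45.9 and 47.6 TPM in GMP at 10 h, against 96.8, 75.1 and 101 TPM at 0 h. Its changes were 0.82 in CALM/AF10 cells and -0.93 in GMP, and its difference was 1.75. Gbp5, an interferon-inducible GTPase, rose by 0.79 in CALM/AF10 cells and fell by 1.80 in GMP. The ubiquitin ligase subunit Fbxo27, the apolipoprotein Apoc1, the syndecan Sdc2 and the chemokine Ccl27a had differences of 2.27, 2.16, 1.52 and 1.56. Ccl27a has near-identical copies and is uncertain. Opposed changes of at least 1 log2 unit in both cell types were called for 2 genes alone, Apoc1 and Gnrh1, both under 10 TPM in every sample.

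Large changes in the same direction were more numerous. This group was picked after the values were seen: genes called in both cell types with at least 1 log2 unit of change in the same direction in each. It held 66 genes, 37 that fell and 29 that rose, and 127 with a pseudocount of 0.1 TPM. They made up 32.4% of the 204 genes with a called change of that size in CALM/AF10 cells and 5.62% of the 1174 in GMP. The difference was called for 11 of the 66, and no test of that share was made. The 38.7% of all genes tested is no yardstick for it. The 66 were picked by the same changes that make up the difference, so a low count is partly built in. Fam117a, a gene of little known function, had 1.61, 2 and 1.46 TPM in CALM/AF10 cells at 10 h, against 20.1, 19.3 and 17.5 TPM at 0 h, and 9.46, 9.62 and 9.32 TPM in GMP at 10 h, against 66.3, 61.3 and 57.4 TPM at 0 h. It fell by 2.90 in CALM/AF10 cells and by 2.58 in GMP. The difference was -0.32 (interval -0.60 to -0.03, limma adjusted p = 0.0765), and it was -0.40 with an adjusted p of 0.0308 without sample b of CALM/AF10 cells at 10 h. With a pseudocount of 0.1 TPM it was -0.73 with an adjusted p of 0.00367. The synaptic adaptor gene Apba1 had 0.0559, 0.116 and 0.0867 TPM in CALM/AF10 cells at 10 h, against 6.15, 6.04 and 6.05 TPM at 0 h, and 0.178, 0.279 and 0.145 TPM in GMP at 10 h, against 8.65, 8.26 and 7.25 TPM at 0 h. It fell by 2.70 in CALM/AF10 cells and by 2.91 in GMP, with a difference of 0.21 (interval -0.05 to 0.47).

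The prenyl-binding protein gene Pde6d, the kinase gene Aatk and Mcu, the mitochondrial calcium channel, fell further in CALM/AF10 cells, with differences of -0.56, -0.77 and -0.77. Dcp1b, an activator of decapping, fell by 1.36 in CALM/AF10 cells and by 1.17 in GMP. Among the risers, Tkfc, a triose kinase, averaged 31.1 ± 1.18 TPM in CALM/AF10 cells at 10 h and 8.18 ± 0.482 TPM at 0 h, against 12.9 ± 0.84 TPM in GMP at 10 h and 6 ± 1.2 TPM at 0 h (SD, n = 3 each). Its rise was larger in CALM/AF10 cells, with a difference of 0.80. Rhbdd3, of the rhomboid family, rose by 1.59 in CALM/AF10 cells and by 1.29 in GMP, and Bcas1 by 1.76 in CALM/AF10 cells and by 1.73 in GMP. The noncoding RNA Snhg3, a host of small nucleolar RNAs, had 439.9, 399 and 437 TPM in CALM/AF10 cells at 10 h, against 135, 143 and 145 TPM at 0 h, and 1224, 1608 and 1807 TPM in GMP at 10 h, against 160.1, 243 and 177 TPM at 0 h. It rose further in GMP, with a difference of -1.41. Zbtb18, a transcriptional repressor, had 239, 239.9 and 253 TPM in CALM/AF10 cells at 10 h, against 69.3, 98.9 and 79.8 TPM at 0 h, and 277, 273 and 251 TPM in GMP at 10 h, against 93.8, 115 and 94.7 TPM at 0 h. For both genes, all samples at 10 h lay above those at 0 h in each cell type. The difference of Zbtb18 was 0.17 (interval -0.19 to 0.53).

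**Figure D4:**
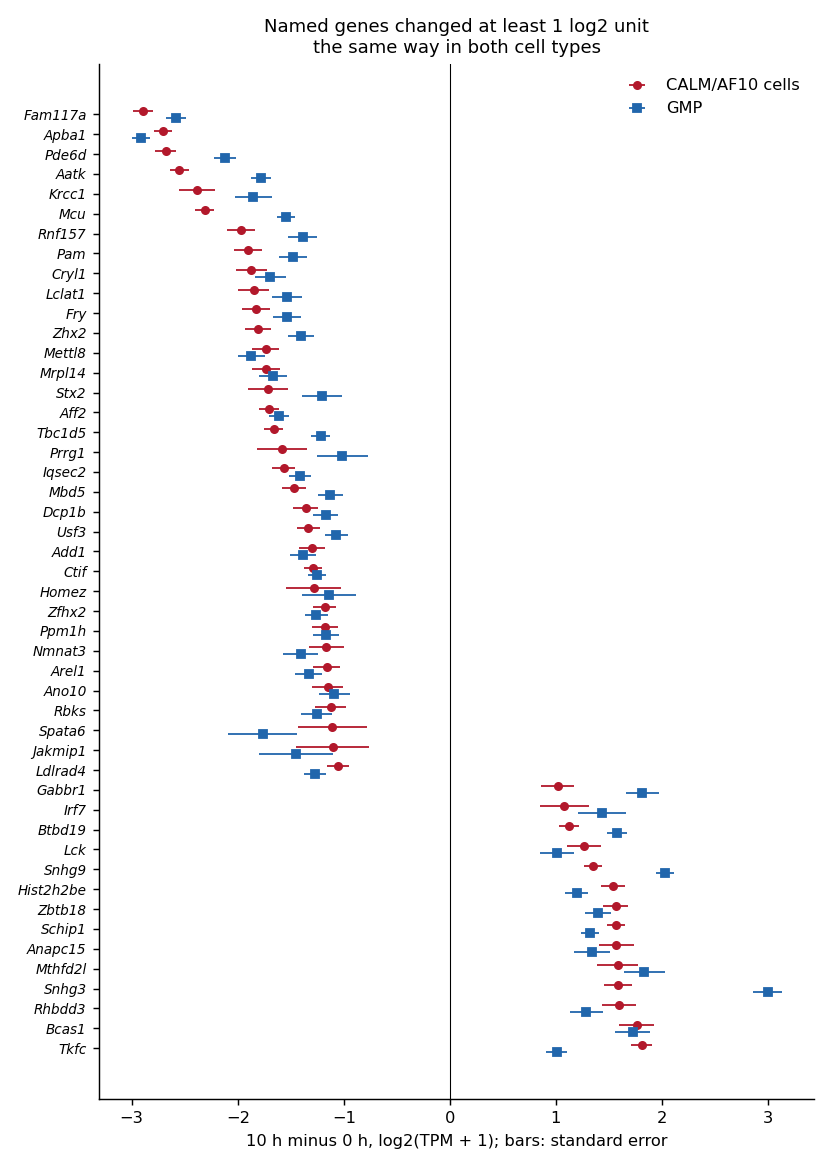
Change at 10 h in log2(TPM + 1) of the named genes that changed by at least 1 log2 unit in the same direction in CALM/AF10 cells (red circles) and GMP (blue squares), with standard errors from limma. In CALM/AF10 cells Fam117a is the lowest at -2.90 and Tkfc the highest at 1.81.

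The 37 genes that fell in both had a median span of 109 kb from first to last base in RefSeq (GRCm38.p6), with quartiles of 44.9 and 170 kb, and none lacked a value. The median of the 12083 tested genes with a span (86.0% of all tested) was 20.4 kb. Of the 37, 23 were in the longest of 5 groups of equal size, above 59.1 kb. Too few of the genes that rose had a span (69.0%) for their lengths to be used. Over all genes, 11.4% of the longest group fell in CALM/AF10 cells and 3.81% of the shortest group, and in GMP these shares were 36.3% and 20.4%. The median change of the longest group was -0.02 in CALM/AF10 cells and -0.13 in GMP, and its median difference was 0.08. These shares are descriptions with no test.

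Splice junctions were compared through the authors' deposited tables for 10 h, which list junctions used more than at 0 h with q below 0.05. PSI, the percentage of transcripts using a junction among its alternatives, is given there as a group mean in whole percent, so no spread can be given. The list for CALM/AF10 cells held 689 junctions in 523 genes, and that for GMP held 400 junctions in 315 genes. Alternative 5′ splice sites were 40.5% of the CALM/AF10 list and 39.2% of the GMP list. Exon inclusion made up 13.5% and 3.75%, exon skipping 3.19% and 12%, intron skipping 11.8% and 21%, and intron retention 15.4% and 14%, in CALM/AF10 cells and GMP. The authors marked 59.1% of the CALM/AF10 junctions as unannotated, against 37.8% in GMP, and predicted nonsense-mediated decay for 26.3% against 15.5%. Median raw counts of the listed junctions were 80 at 10 h and 30 at 0 h in CALM/AF10 cells, against 147 at 10 h and 49 at 0 h in GMP, and the part of coverage in these shares was not tested.

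The same junction stood in both lists for 46 junctions of 43 genes, which is 6.68% of the CALM/AF10 list and 11.5% of the GMP list. By gene, 82 genes had a junction in both, 15.7% of those in the CALM/AF10 table and 26% of those in the GMP table. Of the 46, 29 were alternative 5′ splice sites and 30 were marked unannotated by the authors. In GENCODE M21, of the same genome build, 19 of these 30 join exons of an annotated transcript. The median PSI change was 12 points in CALM/AF10 cells and 15 points in GMP, and the authors' log2 odds ratio was larger in CALM/AF10 cells for 16 and in GMP for 30.

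The following junctions were chosen after their values were seen, as the 4 with the largest PSI change in CALM/AF10 cells. In the authors' deposited table, the Zbtb18 junction at chr1:177442595-177443223 (plus strand, mm10), an alternative 3′ splice site between annotated exon ends, had a PSI of 71% in CALM/AF10 cells at 10 h and 19% at 0 h, against 47% in GMP at 10 h and 15% at 0 h. That gene also rose in both cell types. Zc3h4, which encodes a factor that ends unproductive transcription, had an alternative 5′ splice site at chr7:16401041-16416772 (plus strand) with 70% at 10 h and 26% at 0 h in CALM/AF10 cells, against 40% at 10 h and 20% at 0 h in GMP, in the authors' deposited table. A junction of Tbc1d2b, a regulator of vesicle traffic, at chr9:90238460-90241009 (minus strand) ended inside an exon outside the coding sequence, and the authors' deposited table gave it 43% at 10 h and 3% at 0 h in CALM/AF10 cells, against 22% at 10 h and 1% at 0 h in GMP. For the kinase gene Rps6ka3, the junction at chrX:159256188-159278109 (plus strand) had 65% at 10 h and 24% at 0 h in CALM/AF10 cells, against 53% at 10 h and 6% at 0 h in GMP, in the authors' deposited table. PSI rose in both cell types for each of them. The rise was larger in CALM/AF10 cells for Zbtb18, Zc3h4 and Tbc1d2b and in GMP for Rps6ka3. These 4 were picked by the CALM/AF10 change, so a larger rise there is partly built in. Over all 46 shared junctions the median PSI change was 12 points in CALM/AF10 cells and 15 in GMP. Mean raw counts in GMP at 10 h and 0 h were 61 and 9 for Zbtb18 and 89 and 23 for Zc3h4. They were only 22 and 1 for Tbc1d2b and 15 and 1 for Rps6ka3. In CALM/AF10 cells they were 111 and 32, 341 and 92, 181 and 9, and 40 and 31, in the same order.

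**Figure D5:**
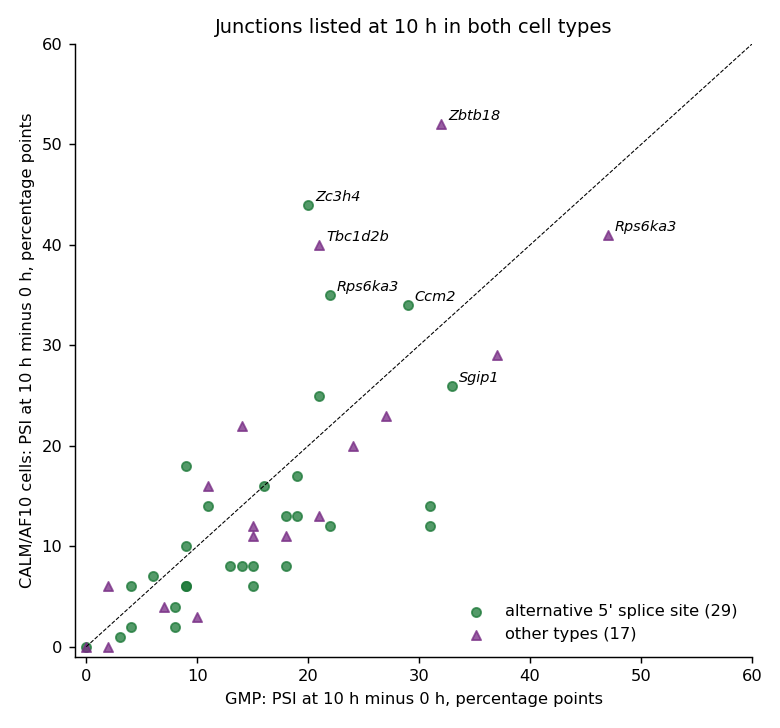
PSI change (10 h minus 0 h, percentage points, authors' group means) of the 46 junctions listed for both CALM/AF10 cells (vertical axis) and GMP (horizontal axis). Circles are alternative 5′ splice sites, triangles all other types, and the dashed line marks equal change; Zbtb18, with 71% and 19% in CALM/AF10 cells, lies highest.

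The expression change of many genes with a listed junction differed as well. Of 491 tested genes in the CALM/AF10 table, 256 had a called difference (52.1%), and 58.0% of the 295 tested genes in the GMP table had one, against 38.7% of all genes tested. Their median level at 0 h was 36.6 TPM in CALM/AF10 cells for the first list and 59.3 TPM in GMP for the second, against 7.32 TPM in CALM/AF10 cells and 7.64 TPM in GMP over all genes tested, and the part of level in these shares was not tested. The median absolute difference was 0.34 in the first list and 0.35 in the second, against 0.35 over all genes. Both directions were present, with 120 higher and 136 lower in the CALM/AF10 table and 84 higher and 87 lower in the GMP table. Of the genes listed in both tables with a called difference, 6 were taken by the smallest q in CALM/AF10 cells. Many q-values were tied there and ties were taken by name, so these 6 are not ranked by junction strength. Their differences were small. Ccni, a cyclin-related gene, had the highest with 0.51, rising by 0.37 in CALM/AF10 cells and falling by 0.14 in GMP, and Abcf2, an ATP-binding protein gene, the lowest with -0.55. Those of Anp32a, Arhgdib, B2m and Chmp2a were 0.29, 0.19, 0.34 and -0.16. Under the 21 alternative settings the call was lost in 13 for Chmp2a, whose difference was -0.000311 with quantile normalization, in 11 for Anp32a and in 1 for Arhgdib.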

How the data were processed

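The authors deposited TPM values per gene symbol in a separate table for CALM/AF10 cells and for GMP. STAR and the mm10 build are named, without a role or version, in the submitters' processing notes, and the source of the TPM values is not given in the sources used here. Per the labels' protocols, total RNA was extracted with RNeasy and made into libraries with an Ovation mouse kit. The columns name the group but no replicate, so samples are called a, b and c in column order. Depth is unknown, and the TPM tables were normalised separately, so levels set across cell types are descriptions.

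From the TPM values, log2(TPM + 1) was computed, and fold changes are on that scale, which understates the change of low genes. Genes with at least 1 TPM in 3 of the 18 time course samples were fitted in 1 limma model (version 3.58.1, trend, R 4.3.3) with 6 groups, the 6 h samples sharing the estimate of the spread. The contrast of interest was the 10 h change in CALM/AF10 cells minus that in GMP. P-values were adjusted by Benjamini-Hochberg over 14044 genes, with calls at an adjusted p below 0.05. The fit was also run on simulated data with the same spread in both cell types. That run cannot check the common spread assumed for CALM/AF10 cells and GMP.

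The 10 h junction tables hold the authors' PSI in percent, their log2 ratios, q-values from their own test and mean raw counts, which are used as a score. They list only junctions with q below 0.05 and a positive ratio, so a junction that is not listed was not measured as unchanged.

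The members and all gene lists were chosen with earlier results of these data known. Named genes were 6 fixed ones (Dcps, Myc, Hoxa9, Meis1, Mcl1, Cdkn1a), the 8 largest called differences each way with a group mean of at least 5 TPM, up to 4 per list with at least 3 calls, the 6 strongest opposed genes in each orientation, and up to 6 with a junction in both tables, ties in q taken by name. Predicted, antisense and pseudogene symbols were counted but not named, and other genes are said to be chosen after their values were seen. Gene spans and promoters came from RefSeq (GRCm38.p6), junction ends from GENCODE M21. The 6 h changes and the other cell lines were not analysed here.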

Additional observations from a re-analysis of the deposited data

Results flagged for a closer look

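The 10 h change differed between CALM/AF10 cells and GMP for 5439 genes by the test of the difference itself (limma, Benjamini-Hochberg), and for 339 of them both cell types had a call, in opposite directions. The genes with the strongest opposed changes are given here by that difference in log2(TPM + 1), each higher or lower in all 3 samples at 10 h than in all 3 at 0 h of its cell type. Higher in CALM/AF10 cells were Gbp5 with 2.59, Fbxo27 with 2.27, Apoc1 with 2.16, Phf21a with 1.75, Ccl27a with 1.56 and Sdc2 with 1.52. Lower in CALM/AF10 cells were Ccl17 with -3.72, Coro2a with -2.83, Tmem154 with -2.38, Gnrh1 with -2.25, Reep6 with -2.10 and Atf5 with -1.86. Of these, Fbxo27, Apoc1, Sdc2 and Gnrh1 stayed below 10 TPM in every sample.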

How the results depend on the processing

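The count of 5439 differing genes lay between 4639 and 5518 under 21 alternatives, 12 of which left out 1 sample each (4879 to 5239). Of the 94 called differences followed for single genes, 89 kept direction and call in every alternative and none changed sign. Opposed genes higher in CALM/AF10 cells were 1.12% of the 14044 genes as reported, 1.74% with the spread estimated per cell type (an alternative chosen after seeing the data), and 0.705% to 1.22% with 1 sample left out. Shared large changes were 127 with a pseudocount of 0.1 TPM against 66, and the cause was not tested. The 46 shared junctions were 82 when matched by gene symbol and 25 with a PSI change of at least 10 points, both by construction. Differences that were not called changed sign for Hoxa9 with quantile normalization (0.0016), for Apba1 with a pseudocount of 0.1 TPM (-0.28) and for Bcas1 with that pseudocount (-0.12), with quantile normalization (-0.030) and with samples left out (-0.14 to 0.28). The calls of Rps12 were lost under 14 alternatives, of Chmp2a under 13, of Anp32a under 11, of Xaf1 under 2 and of Arhgdib under 1. Of 55 list counts, 44 stayed within 1.5 times; the exceptions were in the interferon, decapping, decay, spliceosome, splicing regulator, glycolysis, respiratory chain and CDK lists. No paired analysis was possible because the TPM columns carry no replicate numbers. With 3 samples a group and unknown depth, the median standard error of the difference of 0.16 limits what could be called.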

Other observations

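Heat shock chaperones of the cytosol moved both ways in GMP. Of 16 tested, 8 rose and 5 fell there, against 26.7% and 25.7% of all genes tested. Their differences were higher for 4 and lower for 8, against 18.5% and 20.2%, with a median of -0.22. Hspa1b had 0.679, 0.506 and 0.855 TPM in CALM/AF10 cells at 10 h, against 0.645, 0.705 and 0.928 TPM at 0 h, and 3.11, 2.53 and 3.53 TPM in GMP at 10 h, against 51.8, 45.6 and 48.7 TPM at 0 h, a difference of 3.55, and its near-identical copy Hspa1a one of 3.55, so each alone is uncertain. Hsph1, a partner of Hsp70, moved the other way with -0.97. All 3 GMP samples at 10 h lay below those at 0 h for the Hspa1 genes and above them for Hsph1.

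Among 18 stem and progenitor transcription factors, 5 differences were higher and 3 lower, with a median of 0.13. Myb, which maintains progenitors, had 111, 114 and 122 TPM in CALM/AF10 cells at 10 h, against 127, 122 and 122 TPM at 0 h, and 172, 157 and 163 TPM in GMP at 10 h, against 299.9, 317 and 296 TPM at 0 h, for a difference of 0.79. Tal1, a factor of early blood and red cell development, averaged 0.822 ± 0.314 TPM in CALM/AF10 cells at 10 h and 0.432 ± 0.25 TPM at 0 h, against 46.6 ± 3.77 TPM in GMP at 10 h and 16.1 ± 4.12 TPM at 0 h (SD, n = 3 each), for a difference of -1.15. Chemokines had 6 higher and 3 lower differences among 15 and a median of -0.24. CDK inhibitors, D cyclins and p53 targets had 5 in each direction among 17, and nuclear genes of the respiratory chain 1 higher and 9 lower among 28. With quantile normalization the lower count was 3 in the CDK list and 3 in the respiratory chain list. Over all genes tested, 18.5% of differences were higher and 20.2% lower. Of 13 mitochondrially encoded genes, none rose and 9 fell in GMP, none rose and 2 fell in CALM/AF10 cells, and 2 differences were higher. The 9 were 4 with quantile normalization. Of all genes tested, 25.7% fell in GMP and 6.18% in CALM/AF10 cells.

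A junction of Sgip1, an endocytic adaptor gene, listed at 10 h in both cell types as an alternative 5′ splice site marked unannotated, starts inside an intron in GENCODE M21. In the authors' deposited table its PSI was 29% in CALM/AF10 cells at 10 h and 3% at 0 h, against 85% in GMP at 10 h and 52% at 0 h. Its mean raw counts at 10 h and 0 h were 46 and 6 in CALM/AF10 cells and 125 and 23 in GMP. It was chosen after its values were seen.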
